A study of Triticum aestivum with 96 samples.

Results

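Spring Manitou is a wheat line of spring habit, and this account describes how transcript levels in its crowns differed after 70 days at 6 °C from those after 42 days. The crown is the tissue at the base of the seedling that holds the shoot apical meristem. The comparison takes 3 arrays at 70 days and 3 arrays at 42 days, chosen by the labels for genotype and duration, out of 96 arrays in the series. The study grew seedlings until they had a few leaves, moved them to the cold and hybridized each pooled crown sample to its own Affymetrix Wheat GeneChip.

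The series holds 4 lines, sampled untreated (0 days) and after 2, 14, 21, 35, 42, 56 or 70 days, which makes 32 groups of 3 arrays. Spring Manitou carries the dominant Vrn-A1 allele. Winter Manitou is a near isogenic line of Manitou into which the recessive vrn-A1 of Norstar was crossed. In spring Norstar the reverse was done, so that Norstar carries Vrn-A1 from Manitou, and winter Norstar has its own vrn-A1. The lines were made by backcrossing, so each differs from its parent in the segment around the locus and in any donor segment that was kept. The plants of all groups compared here were in the cold, and only its length differed within a line.

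Wheat that is held just above freezing builds up dehydrins, COR proteins, antifreeze and defence peptides and fructans, and this state of acclimation is lost again as the shoot apex turns from making leaves to making flowers. Vrn-A1 encodes a MADS-box protein that promotes that turn. Plants with the dominant allele need no long cold to reach it, whereas vrn-A1 plants need vernalization. Later, the stem extends, and its cells lay down secondary walls of cellulose and lignin.

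The 42-day arrays were spread, with replicate 2 toward the 70-day arrays and replicate 1 away from them. Over the 1116 probe sets called higher at 70 days in spring Norstar, a line whose arrays enter none of the spring Manitou means but share in the estimate of the spread, the 70-day arrays of spring Manitou lay at medians of 0.86, 1.14 and 1.14 on the log2 scale above the 42-day mean, and the 42-day arrays lay at -0.31, 0.34 and -0.02. Over the 404 probe sets called lower in spring Norstar, the medians were -0.93, -1.33 and -1.25 at 70 days and 0.22, -0.31 and 0.08 at 42 days. Replicate 2 at 42 days was thus the 42-day array nearest to the 70-day arrays in both sets, and replicate 1 at 70 days was the 70-day array nearest to the 42-day arrays. The correlation of levels over all probe sets was 0.9937 between 70-day replicate 1 and 42-day replicate 2, but each correlated best with an array of its own group, 0.9943 for 70-day replicate 1 with 70-day replicate 2 and 0.9956 for 42-day replicate 2 with 42-day replicate 3. However, 70-day replicate 1 correlated less with 70-day replicate 3 (0.9881) than with 42-day replicates 2 and 3 (0.9937 and 0.9883). With 42-day replicate 1 the correlation was 0.9909 for 42-day replicate 2 and 0.9937 for 42-day replicate 3. Array weights, which limma sets lower for arrays further from the fitted group means, were 0.373, 0.601 and 2.2 for 42-day replicates 1, 2 and 3. They were 0.736, 0.913 and 0.317 for 70-day replicates 1, 2 and 3. The part of any single array in the results was not tested, and values without an array are given for calls that it changed.

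**Figure D1:**
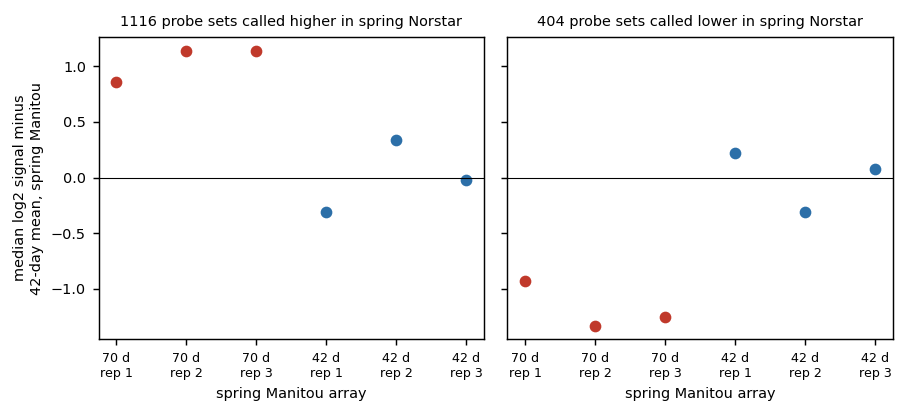
The y axis gives the median log2 signal of each spring Manitou array minus the 42-day mean, over the 1116 probe sets called higher (left) and the 404 called lower (right) at 70 days in spring Norstar, with arrays at 70 days in red and at 42 days in blue. On the left the 42-day replicate 2 lies at 0.34, between the other 42-day arrays and the 70-day replicate 1 at 0.86.

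Of 61179 probe sets, 925 (1.51%) were higher and 700 (1.14%) were lower at 70 days than at 42 days in spring Manitou, so that 2.66% were called. A probe set was called where limma's Benjamini-Hochberg adjusted p was under 0.01 and the change was at least 2-fold. The spread was estimated over all 96 arrays. With the 6 arrays alone, and no term for the replicate number (replicate block), 2 probe sets passed. Over those 6 arrays the median residual SD of the called probe sets was 0.379, against 0.253 over the whole series. Without 42-day replicate 1 the count fell to 1040, and without 42-day replicate 2 it was 2408. All 3 arrays at 70 days lay above all 3 at 42 days for 878 of the 925 probe sets called higher (14.3% of all probe sets did so), and all 3 lay below for 686 of the 700 called lower (16.9% of all did so). A change of at least 4-fold was found for 66 probe sets that were higher and 35 that were lower. Across all probe sets the median change was -0.04. The samples are labelled as biological replicates, and the p-values rest on the spread between such samples pooled over all groups. They do not measure the spread of the 6 arrays alone, which was wider for the called probe sets.

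Only 323 (19.9%) of the 1625 called probe sets had a description in the tables used here, and most of these come from genes that the study selected on the same samples for a response that differed between lines. Counts over lists of described genes are therefore not independent evidence of a direction or of a difference between lines. In what follows a change is given as log2 of 70 days over 42 days with its standard error (SE), levels are log2 signals in the order of replicates 1, 2 and 3, and a list's count stands beside the 2.66% of all probe sets.

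Among described probe sets the largest rise belonged to a late embryogenesis abundant (LEA) protein, one of the hydrophilic proteins that accumulate in drying seeds and stressed tissue. The probe set had 7.84, 8.44 and 7.63 at 70 days and 4.24, 5.55 and 5.10 at 42 days. Every 70-day array was thus above every 42-day array, and the level was 8.01-fold higher at 70 days (log2 change 3.00 ± 0.30, adjusted p 1.6e-12). SAG12, a cysteine protease used as a marker of leaf senescence, had 11.08, 11.03 and 10.62 at 70 days and 7.10, 9.77 and 8.09 at 42 days. The groups did not overlap, but the 42-day arrays spread widely, with replicate 2 the highest, and the change of 2.59 ± 0.65 (adjusted p 0.0015) fell to 1.98 and lost its call without 42-day replicate 1. A putative metacaspase, of a family of proteases linked to programmed cell death in plants, stood at 11.63, 12.38 and 12.35 at 70 days and at 9.48, 10.42 and 9.26 at 42 days. Its groups were more than 1 log2 unit apart at their closest (change 2.39 ± 0.31, adjusted p 4.9e-09).

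**Figure D2:**
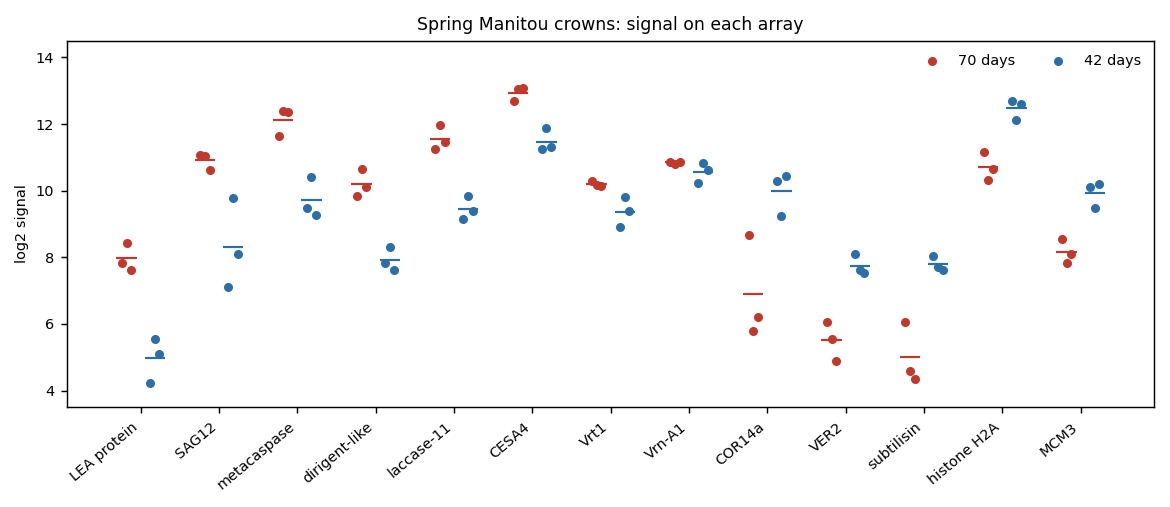
The y axis gives the log2 signal of each spring Manitou array for 13 named genes, with 70-day arrays in red left of 42-day arrays in blue and a line at each mean of 3 arrays. The groups do not overlap except for Vrn-A1, whose 70-day arrays lie at 10.87, 10.81 and 10.87 and whose 42-day arrays lie at 10.23, 10.83 and 10.62.

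Some genes of secondary wall and lignin formation were higher at 70 days. All 6 cellulose synthase (CESA) probe sets, the catalytic subunits that spin cellulose at the plasma membrane, were higher at 70 days, by 1.13 to 1.60 with a median of 1.40, and they belong to 3 sequence clusters and are not independent genes. The one at 1.13 had overlapping groups and lost its call without 70-day replicate 2 (0.68) or 42-day replicate 3 (0.98). CESA4, a subunit used in secondary walls, had 12.69, 13.05 and 13.08 at 70 days and 11.25, 11.87 and 11.30 at 42 days, so that no array overlapped (change 1.47 ± 0.18, adjusted p 1.2e-09). Of 5 laccases, copper oxidases that couple lignin monomers in the wall, 4 were higher, 1 of which (1.15) was not called without 70-day replicate 3 or 42-day replicate 1. Laccase-11 had 11.24, 11.96 and 11.47 at 70 days and 9.15, 9.83 and 9.40 at 42 days, with a gap between the groups on every pair of arrays (change 2.10 ± 0.25, adjusted p 5.4e-10). In bulk crown tissue, a change in the number of cells of a type and a change in RNA per cell cannot be told apart, in these genes or in those below.

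Several enzymes on the way to lignin monomers were higher, though not on every probe set. Of 6 dirigent proteins 1 was called, and the family's median change was 0.11. This dirigent-like protein, of a family that guides the coupling of phenolic radicals, had 9.84, 10.65 and 10.12 at 70 days and 7.84, 8.31 and 7.63 at 42 days (change 2.28 ± 0.19, adjusted p 8.3e-15). Its 70-day arrays were all well above its 42-day arrays. Phenylalanine ammonia-lyase, which opens the pathway, was among the brightest probe sets named and still rose by 1.17 ± 0.15, with 13.98, 14.11 and 14.01 at 70 days and 12.78, 13.15 and 12.66 at 42 days, while its other probe set changed by 0.62 and was not called. Ferulate-5-hydroxylase, which commits the pathway to syringyl units, rose by 1.95 ± 0.27 (adjusted p 3.0e-08). Cinnamoyl-CoA reductase rose by 1.32 ± 0.16, cinnamyl alcohol dehydrogenase passed on 2 of 3 probe sets (1.18 and 1.03) and caffeic acid O-methyltransferase on 2 of 2 (1.28 and 1.04). The third dehydrogenase (0.88) and caffeoyl-CoA O-methyltransferase (0.83) were under 2-fold. The dehydrogenase at 1.18 lost its call without 42-day replicate 1 (0.96), and the probe sets at 1.03 and 1.04 lost theirs without 70-day replicate 2 or 42-day replicate 1 or 3. Over the whole phenylpropanoid and lignin list, 9 of 36 probe sets were higher and 6 were lower, with a median change of 0.54.

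Members of the same list went down as well. An O-methyltransferase of unstated substrate had 9.40, 7.71 and 8.13 at 70 days and 10.91, 11.02 and 11.66 at 42 days. All 3 arrays at 70 days were below the 42-day arrays, with replicate 1 the nearest (change -2.78 ± 0.30, adjusted p 1.4e-11). Chalcone synthase, which turns the pathway from lignin toward flavonoids, was lower on 2 of 3 probe sets. Chalcone synthase 2 stood at 6.78, 6.25 and 5.88 at 70 days and at 8.43, 7.22 and 7.87 at 42 days, without overlap (change -1.54 ± 0.23, adjusted p 2.0e-07).

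The cell wall list was divided by kind of protein, with 13 of 44 probe sets higher, 8 lower and a median of 0.04. Beside the synthases and laccases, the fasciclin-like protein FLA18, a cell surface glycoprotein, rose by 1.30 ± 0.20, while FLA5 of the same family fell by 1.21 ± 0.17. Expansins, which loosen primary walls, were lower on 3 of 5 probe sets and higher on none of them. A probe set of the beta-expansin EXPB6 had 8.66, 8.40 and 9.20 at 70 days and 10.38, 9.97 and 10.05 at 42 days, so that its groups stood apart (change -1.38 ± 0.15, adjusted p 3.2e-11). Pectin enzymes were lower on 3 of 7, among them a putative pectin acetylesterase at -1.17 ± 0.13. A glycine-rich cell wall protein, a structural wall protein, had 10.01, 10.45 and 10.64 at 70 days and 8.38, 9.02 and 8.72 at 42 days (change 1.66 ± 0.24, adjusted p 1.2e-07).

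**Figure D3:**
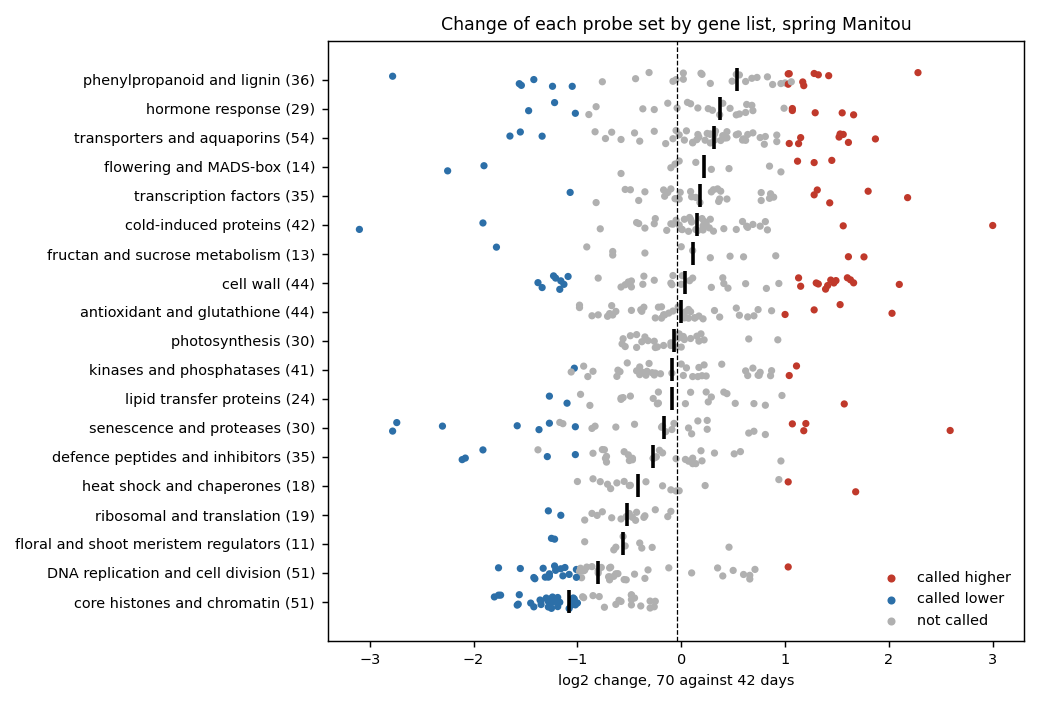
Each point is 1 probe set of a gene list, the x axis gives its log2 change at 70 against 42 days in spring Manitou, the black bar is the list's median and the dashed line is the median of all probe sets at -0.04. Red points were called higher, blue points lower and grey points were not called. The histone list lies wholly below 0, with a median of -1.08, whereas the cell wall list is spread on both sides of its median of 0.04.

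Genes of dividing cells were lower at 70 days. On all 51 probe sets of the core histone and chromatin list, the proteins that package new DNA, every 70-day array lay below every 42-day array. Over all probe sets 16.9% did so. In the list 33 were called lower, by at least 2-fold (1.14% of all probe sets), and the median change was -1.08. The 51 come from 28 sequence clusters, and the 14 histone H4 probe sets form 1 cluster, so they are fewer genes than probe sets. The array medians of the list were 11.46, 10.77 and 11.02 at 70 days and 12.48, 12.10 and 12.36 at 42 days. Replicate 1 at 70 days and replicate 2 at 42 days were again the nearest of their groups. A histone H2A (Protein H2A.6) had 11.15, 10.33 and 10.65 at 70 days and 12.69, 12.12 and 12.60 at 42 days, a clear gap (change -1.76 ± 0.15, adjusted p 5.1e-15). The histone H4 probe set with the largest fall changed by -1.80 ± 0.16 and the DNA damage histone H2AXb by -1.74 ± 0.14.

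The machinery of DNA replication followed the histones. In the list of DNA replication and cell division, 17 of 51 probe sets were lower and 1, a kinesin, was higher, with a median of -0.80. Without the fold requirement 41 were lower at an adjusted p under 0.01 and 6 were higher (8.68% and 8.36% of all probe sets). All 5 probe sets of minichromosome maintenance (MCM) proteins, the helicase that opens replication origins, fell, by 1.16 to 1.76. The MCM3 homolog 1 probe set with the largest fall had 8.54, 7.84 and 8.11 at 70 days and 10.10, 9.48 and 10.19 at 42 days, and the groups did not meet (change -1.76 ± 0.21, adjusted p 3.5e-10). Ribonucleotide reductase, which makes deoxynucleotides, changed by -1.55 ± 0.13, replication protein A2, which coats single-stranded DNA, by -1.33 ± 0.12 and proliferating cell nuclear antigen, the sliding clamp of the polymerase, by -1.28 ± 0.12. Among 8 cyclins and cyclin-dependent kinases 4 fell, including cyclin-B2-2 (-1.27 ± 0.14), which acts at mitosis. The kinesin that rose (1.03 ± 0.12) lost its call without 70-day replicate 2 or 3 or 42-day replicate 1.

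Flowering genes moved both ways, and neither Vrn-A1 nor Vrt1 was called. The probe set for Vrn-A1 had 10.87, 10.81 and 10.87 at 70 days and 10.23, 10.83 and 10.62 at 42 days, overlapping at replicate 2 of 42 days, and its change of 0.29 ± 0.18 did not pass (adjusted p 0.25). Vrt1, a MADS-box gene similar in sequence to Vrn-A1, had 10.30, 10.18 and 10.14 at 70 days and 8.91, 9.80 and 9.38 at 42 days. The groups did not overlap and the adjusted p was 0.0016, but the change of 0.85 ± 0.21 was under 2-fold and counts as called only without 42-day replicate 2.

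Of the 14 probe sets in the flowering and MADS-box list, 3 were higher and 2 lower (5 and 2 at any fold, against 8.36% and 8.68% of all probe sets), with a median of 0.22, and 3 in all were called without 42-day replicate 1. An FT-like protein, named after the mobile flowering signal, had 9.92, 9.78 and 9.59 at 70 days and 8.21, 9.10 and 8.60 at 42 days. Every 70-day array was higher (change 1.12 ± 0.27, adjusted p 8.4e-04). MADS-box protein 8, a transcription factor of the family that specifies floral organs, had 8.37, 8.44 and 8.79 at 70 days and 5.98, 7.88 and 7.39 at 42 days, where replicate 1 was far below the other 42-day arrays. Its change of 1.45 ± 0.33 and that of the FT-like protein fell to 0.90 and 0.91 without that array and were then not called. MADS2, another MADS-box factor, rose by 1.28 ± 0.24 in the full set and was called whichever array was left out.

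The jacalin-type lectin VER2, first described in wheat as a gene induced by vernalization, went the other way. Its probe set had 6.05, 5.56 and 4.90 at 70 days and 8.10, 7.63 and 7.52 at 42 days, far apart (change -2.25 ± 0.40, adjusted p 9.5e-06). Another probe set of the same sequence cluster, described as a 32 kDa protein, had 6.19, 4.93 and 4.42 at 70 days and 9.14, 7.82 and 7.77 at 42 days, an 8.36-fold lower level at 70 days (change -3.06 ± 0.39, adjusted p 5.0e-09). Hessian fly response gene 1, which codes for a lectin-like protein, was lower too (-1.90 ± 0.37). The jacalin-like lectin whose course the study discusses is not among the probe sets given here. The list of floral and shoot meristem regulators was lower as far as it was called, with 2 of 11 probe sets down by at least 2-fold, 8 down at any fold (8.68% of all probe sets) and a median of -0.56. Both calls were YABBY 4, a regulator of lateral organ polarity, at -1.25 ± 0.15 and -1.22 ± 0.16.

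Cold-induced genes did not move as a group. Of 42 probe sets 2 were higher and 2 were lower, and the median was 0.15. The falls were the chloroplast proteins COR14a and COR14b, which cold switches on in cereals. COR14a had 8.67, 5.78 and 6.22 at 70 days and 10.29, 9.24 and 10.45 at 42 days. Replicate 1 at 70 days lay nearer to the 42-day arrays than to its own group, yet all 3 stayed below them, and the level was 8.59-fold lower (change -3.10 ± 0.45, adjusted p 1.2e-07). COR14b stood at 5.88, 4.33 and 4.47 at 70 days and at 7.02, 5.86 and 7.55 at 42 days, where replicate 1 at 70 days overlapped replicate 2 at 42 days (change -1.91 ± 0.41, adjusted p 1.7e-04).

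The rises in that list were the LEA protein above and a second LEA protein (1.56 ± 0.16, adjusted p 6.9e-12). LEA29, a LEA protein outside the list that the study names, had 7.63, 7.29 and 9.22 at 70 days and 5.71, 7.17 and 7.19 at 42 days. It was called (1.36 ± 0.32), but replicate 3 at 70 days stood apart, and the change was 0.77 without it and 0.87 without 42-day replicate 1, neither of them called. Among the other cold genes named by the study, the dehydrin WCOR726 changed by 0.07 ± 0.29, the LEA/RAB-related COR protein by 0.16 ± 0.26, WZY1-1 by 0.03 ± 0.39 and BLT14.1 by 0.22 ± 0.24, and none of these passed. WCOR518 had 5.70, 5.67 and 4.91 at 70 days and 5.62, 5.86 and 7.15 at 42 days, with a wide 42-day group, and its change of -0.78 ± 0.31 missed the threshold (adjusted p 0.057).

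Defence peptides were lower where they were called. In this list of 35 probe sets 5 were lower and none higher, at a median of -0.27, and 4 probe sets were higher at an unadjusted p under 0.05 in limma. Gamma-thionin, a small antimicrobial peptide, had 9.04, 7.24 and 7.63 at 70 days and 10.34, 9.43 and 10.38 at 42 days, with replicate 1 at 70 days closest to the 42-day group (change -2.08 ± 0.31, adjusted p 1.9e-07). Gamma-1-purothionin, of the same family, changed by -1.91 ± 0.31 (adjusted p 1.2e-06). A defensin was down by 1.02 ± 0.22 and lost its call without 70-day replicate 2 (-0.61) or 42-day replicate 3 (-0.79). An amylase inhibitor-like protein, of a family that blocks the digestive enzymes of insects, had 9.71, 8.25 and 8.24 at 70 days and 10.82, 10.62 and 11.08 at 42 days (change -2.11 ± 0.35, adjusted p 2.1e-06).

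Proteases were split. In the senescence and protease list 4 of 30 probe sets were higher, 7 were lower and the median was -0.17. Beside SAG12, 2 aspartic proteases and the subtilisin OsSub41 homologue (1.07 ± 0.13) were the rises, and this subtilisin was not called without 70-day replicate 2 (0.93) or 42-day replicate 1 (0.97). Of 9 aspartic proteases 2 were also lower, and the family's median was -0.45. The falls were led by subtilisins, serine proteases of the apoplast, on 3 probe sets of the same sequence cluster, which are not independent genes. One probe set of the OsSub7 homologue had 6.06, 4.59 and 4.36 at 70 days and 8.03, 7.71 and 7.61 at 42 days, without overlap (change -2.78 ± 0.37, adjusted p 1.0e-08). The other OsSub7 probe set changed by -2.74 ± 0.39 and the OsSub6 homologue by -2.30 ± 0.29. A serine carboxypeptidase, which trims proteins from the carboxyl end, was down by 1.58 ± 0.16.

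Sugar genes moved both ways. Beta-fructosidase, an invertase-type enzyme that splits sucrose or fructans, had 8.84, 8.65 and 8.69 at 70 days and 6.25, 7.54 and 7.12 at 42 days. The 70-day arrays were close together and above the whole 42-day group (change 1.76 ± 0.26, adjusted p 2.3e-07). The sucrose transporter SUT1D, which loads sucrose into cells, had 11.48, 12.02 and 11.95 at 70 days and 9.96, 10.62 and 10.03 at 42 days (change 1.61 ± 0.21, adjusted p 1.0e-08). Apoplastic invertase 1 fell by 1.78 ± 0.24, and sucrose:fructan 6-fructosyltransferase, which builds fructans, changed by -0.91 ± 0.12 and -0.66 ± 0.10 on its probe sets, under 2-fold but with adjusted p of 2.5e-08 and 1.9e-07. These stand in a list of 13 with 2 higher, 1 lower and a median of 0.11, and 5 were higher and 5 lower at any fold (8.36% and 8.68% of all probe sets).

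Of 54 transporters and aquaporins 8 were higher and 3 were lower, with a median of 0.32, and 23 were higher and 6 lower at any fold (8.36% and 8.68% of all probe sets). The tonoplast aquaporin TIP4-2, a water channel of the vacuole, had 8.68, 8.65 and 8.88 at 70 days and 5.88, 7.79 and 6.94 at 42 days, clear of overlap (change 1.87 ± 0.30). NIP2-2, an aquaporin that in rice carries silicon, rose by 1.56 ± 0.25 and a nitrate transporter by 1.52 ± 0.25. PIP2 aquaporins of the plasma membrane, by contrast, changed by -1.65 ± 0.32 and -1.34 ± 0.31, with overlapping groups, and the second lost its call without 42-day replicate 1. Peroxidases, which act in lignin coupling and in detoxification, gave 3 of the 4 rises among 44 antioxidant probe sets, and a list total of 7 without 70-day replicate 1. The peroxidase with the largest rise had 7.18, 7.20 and 7.39 at 70 days and 5.18, 5.86 and 4.64 at 42 days, a gap of more than 1 log2 unit (change 2.03 ± 0.20, adjusted p 9.4e-13).

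Among signalling and regulatory genes, the calmodulin-like protein CML29, a calcium sensor, had 11.56, 12.14 and 12.00 at 70 days and 9.45, 10.67 and 9.52 at 42 days. The groups did not overlap, and it rose by 2.02 ± 0.23 (adjusted p 8.1e-11). A protein described as 10A19I.8, which carries a MYB-type DNA-binding domain, had 9.41, 10.27 and 10.50 at 70 days and 7.23, 8.57 and 7.85 at 42 days (change 2.18 ± 0.41, adjusted p 2.1e-05). A Q-type C2H2 zinc finger protein rose by 1.80 ± 0.30 and a bZIP factor by 1.43 ± 0.17, and the transcription factor list had 5 of 35 higher and 1 lower at a median of 0.18. In the hormone response list 5 of 29 were higher and 3 were lower, at a median of 0.37, with 5 called in all without 42-day replicate 1. Its members include an auxin-responsive protein (1.29 ± 0.14) and, downward, a gibberellin-regulated protein (-1.02 ± 0.12) that lost its call without 70-day replicate 2 or 42-day replicate 3.

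Ribosomal and translation genes were lower with small steps. Of 19 probe sets 18 were lower at an adjusted p under 0.01 (8.68% of all probe sets), but only 2 by 2-fold (1 to 4 with an array left out, the least without 42-day replicate 1 or 70-day replicate 2, the most without 70-day replicate 1), and the median was -0.52. Ribosomal protein L3 had 9.06, 8.14 and 8.25 at 70 days and 10.13, 9.43 and 9.73 at 42 days (change -1.28 ± 0.17). Chaperones had a median of -0.42, with 9 of 18 lower at any fold (8.68% of all) and none by 2-fold, while a DnaJ protein and an hsp20 protein were called higher. The DnaJ protein (1.03 ± 0.15) lost its call without 70-day replicate 3 or 42-day replicate 1, and the list's count was 1 without 42-day replicate 1 and 4 without 42-day replicate 2. Lipid transfer proteins had 1 of 24 higher and 2 lower at a median of -0.09, with 6 called without 42-day replicate 2. Kinases and phosphatases had 2 of 41 higher and 1 lower at a median of -0.09, and their count ran from 0 without 70-day replicate 2 and 1 without 42-day replicate 1 to 5 without 42-day replicate 2.

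Photosynthesis genes, the leaf markers of this set, did not move as a group. None of 30 probe sets was called by limma, nor without moderation of the variance, although 2 were higher and 8 lower at an unadjusted p under 0.05, and the median change was -0.07. The list's array medians were 9.33, 9.10 and 9.34 at 70 days and 9.39, 9.23 and 9.35 at 42 days, and the groups overlap. The largest drop among its named members was that of a thylakoid lumenal protein (-0.56 ± 0.16), and 1 member was called without 42-day replicate 2 and 1 without 70-day replicate 2.

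Several of the largest changes fell on probe sets without a description. The one with the smallest adjusted p had 5.80, 6.24 and 6.51 at 70 days and 3.04, 3.92 and 3.15 at 42 days, where it was close to the dim end of the arrays (change 2.81 ± 0.19, adjusted p 2.9e-18). Another rose by 2.79 ± 0.31, and one that fell had 5.26, 6.29 and 4.61 at 70 days and 9.08, 7.99 and 8.15 at 42 days (change -3.02 ± 0.62, adjusted p 9.3e-05). A further 3 probe sets were singled out after their values were seen. One, whose name ends in _s_at for probes shared between similar transcripts, had the largest rise of all, with 9.28, 9.92 and 10.23 at 70 days and 5.89, 6.95 and 5.80 at 42 days (change 3.59 ± 0.28). The other 2, from one sequence cluster, changed by -3.14 and -3.29, but on the probe set at -3.14 replicate 1 at 70 days stood at 9.12, within the 42-day values of 10.51, 8.59 and 9.31, while the other 70-day arrays were at 4.98 and 4.88.

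The 56-day samples enter neither mean of the comparison, but they share in the estimate of the spread. The 56-day mean lay between the 42- and 70-day means for 904 of the 925 probe sets called higher and for 694 of the 700 called lower. The median change was 0.42 for 56 against 42 days and 0.88 for 70 against 56 days in those called higher, and -0.36 and -0.89 in those called lower. The 70-day mean was the highest of the 8 daily means for 862 (93.2%) of those called higher, against 21.4% of all probe sets, and it was the lowest for 643 (91.9%) of those called lower, against 33.6% of all. Both these shares and the counts of 56-day means lying between the others follow in part from the choice of the called sets.

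The courses differed in shape. The histone list had medians of 12.74, 12.78, 12.62, 12.63, 12.60, 12.28, 11.98 and 11.14 over the 8 days, so that it was nearly level to 35 days and then dropped. COR14a had means of 4.63, 12.29, 11.41, 10.97, 10.36, 9.99, 9.08 and 6.89, a peak at 2 days and a decline from then on, steepest after 56 days. The OsSub7 subtilisin was at 5.62 at 2 days, 7.78 at 42 days, 7.32 at 56 days and 5.01 at 70 days. SAG12 stayed at 3.05 to 4.32 from 2 to 35 days and was at 8.32, 9.54 and 10.91 at 42, 56 and 70 days. The FT-like protein and MADS-box protein 8 were higher on each later day from 2 days on, the FT-like protein with 5.46 before the cold and 9.76 at 70 days, and Vrn-A1 was already at 9.66 at 0 days.

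**Figure D4:**
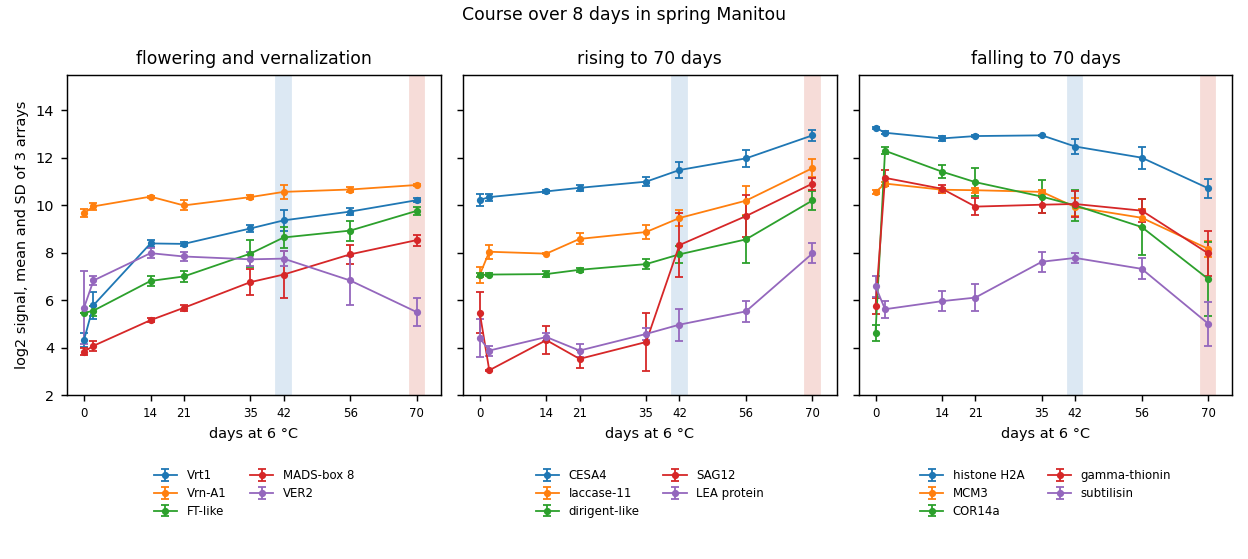
Points give the mean log2 signal of 3 spring Manitou arrays on each of the 8 days of sampling at 6 °C, with bars of 1 SD and shading at 42 and 70 days. Vrt1 and the FT-like protein climb over the whole course (left), CESA4 and laccase-11 rise most after 42 days (middle), and COR14a stands at 12.29 at 2 days and at 6.89 at 70 days (right).

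The same interval was compared in the other lines to ask where spring Manitou differed. In winter Manitou 688 probe sets (1.12%) were called higher and 490 (0.801%) lower, 1.93% in all. Spring Norstar had 1116 (1.82%) and 404 (0.66%), 2.48% in all, and winter Norstar had 353 (0.577%) and 269 (0.44%), 1.02% in all. Of the 925 probe sets called higher in spring Manitou, 591 (63.9%) were also called higher in spring Norstar, which is 53.0% of that line's calls, and 356 (38.5%) in winter Manitou, 51.7% of its calls. Of the 700 called lower, 267 (38.1%) were called lower in spring Norstar, 66.1% of its calls, and 207 (29.6%) in winter Manitou, 42.2% of its calls. With winter Norstar 148 of those called higher (16.0%, and 41.9% of its calls) and 72 of those called lower (10.3%, and 26.8% of its calls) were shared, and 5 and 12 were called in the opposite direction there. The lines share no arrays in these means, but all take their spread from the same 96 arrays.

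Tested directly, the change differed between spring Manitou and winter Manitou for 235 probe sets (0.384%), with the higher change in spring Manitou for 92 (0.15%) and the lower for 143 (0.234%). It differed between spring Manitou and spring Norstar for 60 (0.0981%), higher in spring Manitou for 16 (0.0262%) and lower for 44 (0.0719%). The second count was 120 without 70-day replicate 1 and 28, 33, 29 and 37 without 70-day replicates 2 and 3 and 42-day replicates 1 and 3. For 17 probe sets the change was called in opposite directions in the 2 Manitou lines. In spring Norstar no call ran against a call of spring Manitou, and 1 probe set called lower in spring Manitou was higher there at an unadjusted p under 0.05 in limma.

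The subtilisins and the amylase inhibitor-like protein differed most among described genes. The OsSub7 homologue fell in spring Manitou, as given above, whereas in winter Manitou it had 7.94, 8.17 and 6.02 at 70 days and 4.76, 4.71 and 4.21 at 42 days. The difference of the changes was -5.60 ± 0.52 (adjusted p 3.6e-12). In spring Norstar it had 5.08, 6.10 and 6.21 at 70 days and 5.60, 7.08 and 5.03 at 42 days, a change of -0.10 that did not pass, and the difference from spring Manitou was -2.67 ± 0.52 (adjusted p 0.0029). The 70-day level of spring Manitou was thus near the 42-day level of winter Manitou. The amylase inhibitor-like protein followed the same course, with a change of 2.58 in winter Manitou and a difference of -4.68 ± 0.49. The differences from spring Norstar on these 4 probe sets lost their calls without 70-day replicate 2, 70-day replicate 3 or 42-day replicate 1, and that of the amylase inhibitor-like protein also without 42-day replicate 3.

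**Figure D5:**
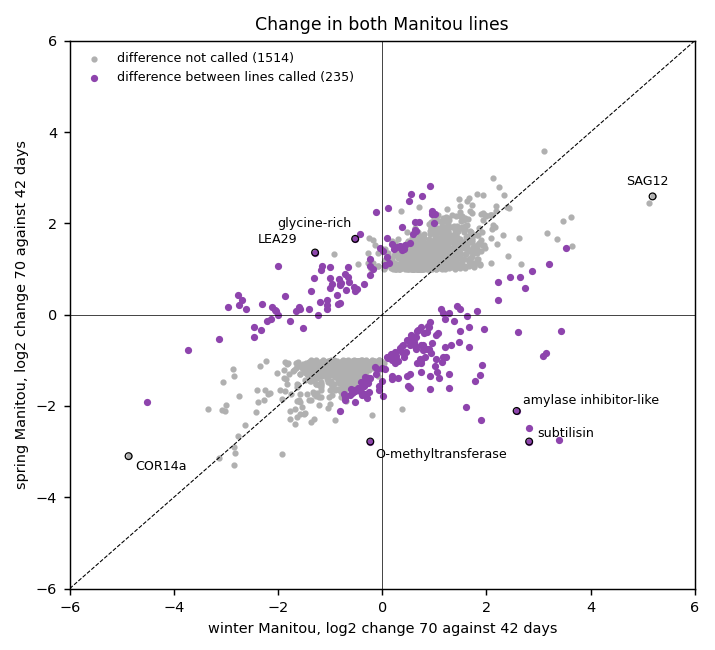
Each point is a probe set called in spring Manitou or called for a difference between the Manitou lines, with its log2 change at 70 against 42 days in spring Manitou on the y axis and in winter Manitou on the x axis. Purple points are the 235 whose changes differ, the dashed line marks equal change, and the empty centre follows from the choice of probe sets. The subtilisin lies at -2.78 in spring Manitou and 2.82 in winter Manitou, and COR14a falls in both.

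Among cold-induced genes the called differences had the opposite sign. The list's median change was 0.15 in spring Manitou and -0.57 in winter Manitou. Of its 42 probe sets 8 had a called difference, each with the higher change in spring Manitou (0.15% of all probe sets). Most of the list comes from genes that the study selected for a response that differed between lines. This count follows in part from that choice. WCOR518 fell in winter Manitou, with 6.23, 5.48 and 4.76 at 70 days and 8.97, 9.30 and 9.38 at 42 days, by which time spring Manitou was already at or below 7.15 (difference 2.94 ± 0.44, adjusted p 7.8e-06). COR14a fell in both lines, and the difference of 1.77 ± 0.64 did not pass (adjusted p 0.18). LEA29 rose in spring Manitou and fell in winter Manitou by 1.29 (difference 2.64 ± 0.45), and the glycine-rich cell wall protein differed likewise by 2.18 ± 0.34.

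Some members of the flowering list rose further in winter Manitou, where they were lower at 42 days. The FT-like protein had 9.92, 9.78 and 9.59 at 70 days and 8.21, 9.10 and 8.60 at 42 days in spring Manitou, and 9.72, 9.36 and 9.49 at 70 days and 6.19, 6.62 and 6.16 at 42 days in winter Manitou. The lines were alike in level at 70 days and far apart at 42 days (difference of changes -2.08 ± 0.38, adjusted p 3.3e-04). MADS-box protein 8 differed by -2.07 ± 0.46 in the same way, a call that was lost without either of 70-day replicates 1 and 2 or of 42-day replicates 2 and 3. In the whole list 3 of 14 had a called difference (0.384% of all probe sets). These were MADS-box protein 8 and both probe sets of the FT-like protein, which share a sequence cluster and are not independent genes. Vrn-A1 changed by 0.29 in spring Manitou and 1.03 in winter Manitou, but the difference of -0.74 ± 0.25 did not pass (adjusted p 0.14).

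The fall of histone genes was seen in spring Norstar too, with a list median of -1.08 for spring Manitou against -0.77 there, and medians of -0.37 and 0.02 in winter Manitou and winter Norstar. Single members differed from winter Manitou, such as the histone H2A at -1.38 ± 0.21 (adjusted p 8.7e-06), and 4 of 51 had a called difference (0.384% of all probe sets). All 6 cellulose synthase probe sets were called higher in spring Manitou, spring Norstar and winter Manitou, whereas in winter Norstar limma called 0 of 6, with 2 higher at an adjusted p under 0.01 and all 6 at an unadjusted p under 0.05. Their median change was 1.40 for spring Manitou, 1.51 for spring Norstar, 1.17 for winter Manitou and 0.66 for winter Norstar. The undescribed probe set with the change of 2.81 rose further in spring Manitou than in winter Manitou or spring Norstar. Winter Manitou had a change of 0.92 and spring Norstar one of 0.08, with differences of 1.89 ± 0.27 (adjusted p 3.1e-06) and 2.72 ± 0.27 (adjusted p 3.0e-10).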

How the data were processed

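The deposited values are log2 signals. The authors extracted probe intensities with MAS 5.0 and processed all arrays by RMA in GeneSpring (version not given in the sources used here), with background correction, quantile normalization and summarization of probes. Values on the arrays at 42 and 70 days ran from 1.92 to 14.73, and they were not scaled again. Of 61290 probe sets 111 Affymetrix controls were left out. Arrays give no counts, so their number limits the precision.

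A model of 32 group means was fitted to the 96 arrays in limma 3.58.1 (R 4.3.3, data.table version 1.17.8), without a replicate block, and contrasts were adjusted by the Benjamini-Hochberg method over 61179 probe sets. The fit was checked on simulated arrays whose changes were known. Summaries and plots used Python 3.11.15 (numpy 2.4.6, pandas 2.3.3, matplotlib 3.10.9).

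Probe sets named were taken from those the study discusses. Not all of these are given, among them its jacalin-like lectin and its extensin-like protein. Also named were the 12 described probe sets with the largest rise and the 12 with the largest fall among those called without overlap. These had a higher group mean of at least 6 and names not ending in _x_at or _s_at. By the same rule the 3 largest each way were named regardless of description. The rest were the 4 smallest adjusted p in each of 19 lists and the 5 largest described differences for each pair of lines. Further members of the families were named after their values were seen. The lists rest on the study's annotation, of which 1549 described probe sets were held here, and on the platform's gene names for 1273 probe sets. Members, lists and tests were chosen with earlier results of these data known. Alternatives varied the arrays in the fit, the brightness and name filters, scaling, moderation, array weights, blocks, thresholds and the arrays left out. Sequences were not used here. A probe set that the rule names is not reported here.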

Additional observations from a re-analysis of the deposited data

Results flagged for a closer look

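The change from 42 to 70 days differed between lines by a test of the difference itself, spring Manitou minus the other line, in limma with Benjamini-Hochberg adjustment over all probe sets. It did so for 235 probe sets against winter Manitou and for 60 against spring Norstar. No explanation was tested for any of them. With single spring Manitou arrays left out, calls were lost for all 4 protease and inhibitor differences from spring Norstar and, against winter Manitou, for COR14b, WCOR726, the LEA/RAB-related COR protein, BLT14.2, the arginine/serine-rich, protamine-like, dirigent-like, thaumatin family and RCH2 proteins, the peroxidase, the beta-expansin, MADS-box protein 8, histone H4 and the second FT-like probe set.

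Among proteases and inhibitors, the difference from winter Manitou was -5.60 and -6.14 on the OsSub7 subtilisin probe sets, -4.18 on OsSub6 and -4.68 for the amylase inhibitor-like protein, and from spring Norstar it was -2.67, -2.88, -2.08 and -2.35 in the same order. A putative diphosphonucleotide phosphatase, which stood at 11.40 or more on every spring Manitou array at both days, differed from winter Manitou by -3.80. A short chain dehydrogenase differed from spring Norstar by -1.78, but it was dim in spring Manitou at both days (3.85 to 4.29). A thaumatin family protein differed from winter Manitou by -1.06.

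Among cold-induced and other genes chosen by the study, the difference from winter Manitou was 2.59 for COR14b, 1.72 for WCOR726, 1.75 for the LEA/RAB-related COR protein, 2.94 for WCOR518, 2.12 for BLT14.2 and 2.64 for LEA29. It was 3.14 for the RUBISCO LSU binding protein, which was near the dim end in spring Manitou at both days, 1.69 for an arginine/serine-rich protein, 1.70 for a protamine-like protein and 2.15 for a probe set without a description.

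Among wall and lignin genes it was 2.18 for the glycine-rich cell wall protein, 1.32 for the dirigent-like protein, 1.33 for the peroxidase, -2.55 for the O-methyltransferase, -1.08 for the beta-expansin and -1.16 for the pectin acetylesterase. Among flowering and chromatin genes it was -2.07 for MADS-box protein 8, -2.08 and -1.91 for the FT-like protein, -1.41 for histone H2AXb, -1.38 for histone H2A.6 and -1.09 for histone H4. The putative RCH2 transporter differed by 1.10 and the gibberellin-regulated protein by -1.32. The undescribed probe set that rose by 2.81 in spring Manitou differed by 1.89 from winter Manitou and by 2.72 from spring Norstar.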

How the results depend on the processing

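The number of called probe sets (1625 in all, 925 higher and 700 lower) depended on the arrays that set the spread. With the 6 arrays alone it also depended on a replicate block, as given below. Without the block, 2 were called in those 6 arrays, 2 higher and 0 lower, although 15259 had an unadjusted p under 0.05 in limma. At an adjusted p under 0.01 without a fold requirement the count was 10423 (5115 higher, 5308 lower), and at 4-fold it was 101 (66 and 35). Leaving out 1 array gave 1040 to 2408 in all, 538 to 1393 higher and 502 to 1015 lower, lowest without 42-day replicate 1 and highest without 42-day replicate 2. The difference from winter Manitou then gave 163 to 351 and that from spring Norstar 28 to 120. The other settings tried, namely only the 24 spring Manitou arrays, only the 24 arrays at 42 and 70 days (chosen after seeing the data), brightness and name filters, scaling, moderation, array weights, harvest and the adjusted p, kept these counts within 1.5 times.

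Per list, leaving out 1 array gave 4 calls throughout for cold-induced proteins, 3 to 7 for flowering, 2 to 3 for floral regulators, 24 to 34 for histones, 12 to 26 for DNA replication, 9 to 12 for senescence, 0 to 1 for photosynthesis, 19 to 22 for cell wall, 10 to 18 for phenylpropanoid genes, 4 to 7 for defence, 3 to 4 for fructan, 2 to 6 for lipid transfer, 8 to 14 for transporters, 3 to 7 for antioxidant, 1 to 4 for ribosomal, 1 to 4 for chaperones (1 also with quantile normalization), 5 to 9 for transcription factors, 0 to 5 for kinases and 5 to 9 for hormone genes.

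In all, 8 uncalled changes near 0 turned direction. With array weights WCOR726 was at -0.21, WZY1-1 at -0.13, the DC-8-like protein at -0.15 and flowering promoting factor-like 1 at 0.03 (0.01 with quantile normalization). With 1 array left out the ranges were -0.18 to 0.28 for WCOR726, -0.03 to 0.30 for the LEA/RAB-related protein, -0.05 to 0.24 for BLT14.2, -0.13 to 0.44 for BLT14.1, -0.41 to 0.43 for WZY1-1, -0.14 to 0.30 for the DC-8-like protein, -0.17 to 0.28 for the protamine-like protein and -0.13 to 0.07 for flowering promoting factor-like 1.

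A replicate block gave 1641 calls over 96 arrays. With the 6 arrays alone it gave 1214, against 2 in the same arrays without the block. Same-numbered arrays at 70 and 42 days correlated by 0.229, 0.0924 and 0.131 in their deviations from the group means. Among unlike-numbered arrays, 70-day replicate 3 correlated by 0.123 with 42-day replicate 2. The remaining unlike-numbered pairs were at -0.231, -0.0358, 0.0169, -0.143 and -0.199. The main fit did not take the numbers to pair the samples, and whether they do was not settled. Signals near the dim end of the arrays lie close to background, which limits what can be said of dim genes.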
